A study of Homo sapiens with 58 samples.

Results

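HaCaT-EGFR cells in serum were compared with the same cells after serum starvation, both without inhibitor. HaCaT cells are human skin keratinocytes that grow without limit in culture, and HaCaT-EGFR is the derivative in which wild-type EGFR, the epidermal growth factor receptor, is overexpressed by force. Members were all arrays whose labels give the line as HaCaT with forced EGFR, no inhibitor, and either serum as medium (5 arrays) or no serum and no ligand (7 arrays), so 12 of the 58 Affymetrix U133 Plus 2.0 arrays of the series. Cells were grown to near confluence in regular medium with fetal calf serum, and the methods give 12 h without serum before ligands were added, so starved arrays labelled 4 h or 8 h may have been without serum for longer than 12 h. All 12 arrays carry the introduced EGFR, and no text states whether the line is 1 clone or whether replicates were separate cultures. The p-values therefore measure only a spread between arrays, pooled over the conditions of all 58 arrays and not taken from these 12 alone. For comparison, gefitinib (an inhibitor of the EGFR kinase) was given in serum on 2 arrays and EGF without serum on 7 arrays of HaCaT-EGFR, and serum and starved arrays also exist for HaCaT-vector (empty vector, 3 and 4 arrays) and HaCaT-p65 (wild-type RELA/p65, a subunit of NF-κB, 3 and 3 arrays). The question is which genes a keratinocyte with much EGFR expresses differently when the growth factors, lipids and hormones of serum are taken away.

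Serum supplies growth factors and lysophospholipids that act through receptor tyrosine kinases and G-protein-coupled receptors. Downstream, ERK activity induces AP-1 transcription factors and feedback phosphatases, actin assembly releases MRTF to join serum response factor (SRF), and AKT keeps the FOXO transcription factors out of the nucleus. Removal of serum lets FOXO factors induce genes of catabolism and quiescence, and removal of lipoproteins and sterols activates SREBP, which raises genes of cholesterol synthesis.

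The 12 arrays lie in 4 processing dates, numbered here as batches in date order. The serum arrays are 3 of 0 h in batch 1 and 1 each of 4 h and 8 h in batch 6, and the starved arrays are 2 in batch 2, 2 in batch 3 and 3 in batch 6 (4 h, 4 h and 8 h). Times are the label's treatment times, and the study's sample sheet describes the serum arrays of batch 6 as serum stimulations of 4 h and 8 h, but enters their time as 0, and no source states whether these cells were kept in serum or starved and then given serum. The sheet also gives Trizol as the RNA extraction of batch 6 and an RNeasy kit for the other batches, whereas the labels give the kit for all arrays. Values are log2 levels from fRMA from which the authors had subtracted a fitted date effect. Batch 1 holds only arrays in serum and HaCaT-EGFR in serum is the only condition it shares with another batch, so this subtraction set the mean of its 3 serum arrays equal to the mean of the 2 serum arrays of batch 6 for every gene (largest difference 8.3e-09). The 3 arrays of 0 h therefore have weight 0 in the difference between serum and starved cells, the 2 serum arrays of batch 6 carry all of the serum weight, and the starved arrays of batch 6 carry a summed weight of -0.714 against -0.143 for each of batches 2 and 3. Because date is fitted, HaCaT-EGFR arrays with EGF also enter, with summed weights of -0.286 in batch 6 and 0.143 in each of batches 2 and 3. None of these EGF arrays was left out in the checks below. Any difference between 0 h and 4 h or 8 h of serum cannot be told apart from the date. Differences below are log2(serum) minus log2(starved) from limma fitted to 18 conditions and date over 58 arrays, with p-values adjusted by Benjamini-Hochberg over 19775 genes.

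Of 19775 genes, 643 passed an adjusted p of 0.05 (3.25%), 249 of them higher in serum (1.26%) and 394 lower (1.99%), and 156 of the 643 differed by at least 1. All 643 had the same direction in batch 6 alone, and for 636 of them the 2 serum and 3 starved arrays of batch 6 did not overlap (28% of all genes, in either direction), but the calls draw most of their weight from these arrays, so neither count is an independent check. Batch 6 fitted alone (18 arrays, 11 conditions) called 194 genes (0.981%), 146 of which were among the 643. The median difference over all genes was -0.001. The count rested on the serum array of 4 h in batch 6: without it 37 genes passed, 36 of them among the 643. Without the serum array of 8 h, 676 passed, but only 341 of these were among the 643. These 676 were 375 higher and 301 lower in serum, against 249 and 394 with all arrays. Without replicate 1 of the starved 4 h arrays of batch 6, 383 passed, 365 of them among the 643. Without each of the other 9 arrays 509 to 871 genes passed. Only 24 of the 643 passed whichever array was left out. EGFR itself was at 9.58 ± 0.12 in serum (SD, n = 5) and 9.63 ± 0.11 starved (SD, n = 7) on its brightest probe set, a difference of -0.06 (SE 0.13, adjusted p = 0.89). Its other bright probe sets, with means of 7.04 to 9.10, differed by -0.08 to -0.04. Its dim probe sets, with means of 3.54 to 5.02, differed by -0.81 to 0.29. These other probe sets were not tested.

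**Figure D1:**
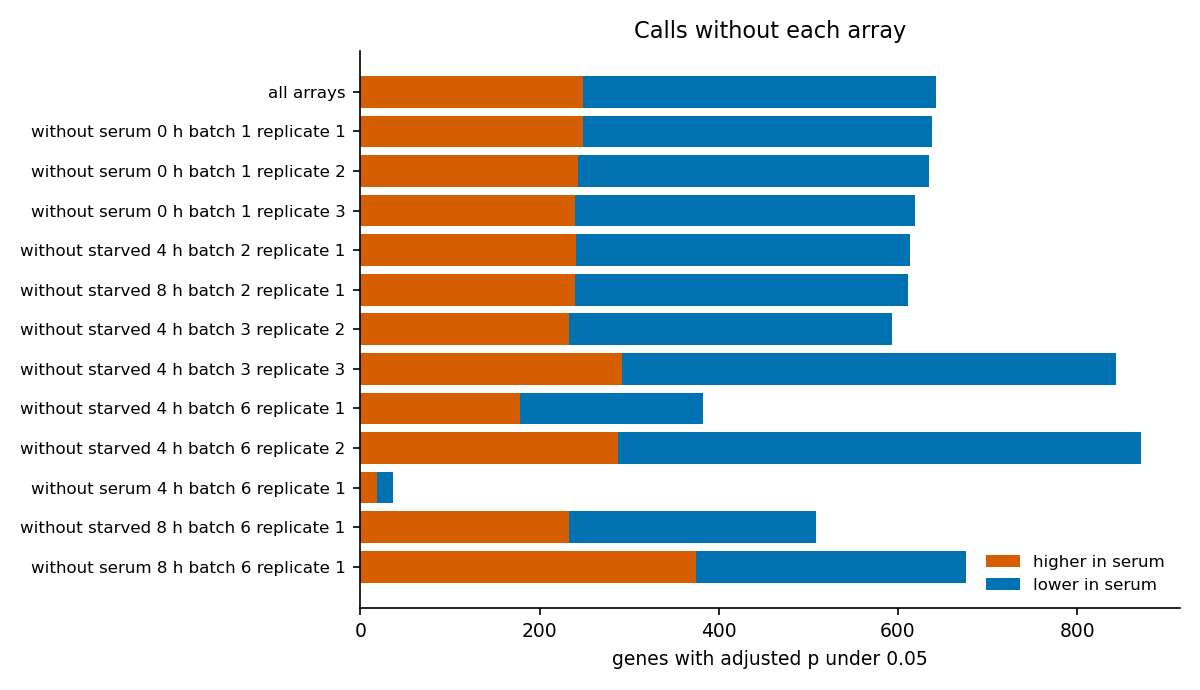
Number of genes with an adjusted p under 0.05 for serum against starved HaCaT-EGFR cells (x axis), with all arrays and without each of the 12 arrays in turn, split into genes higher and lower in serum. The bar without the serum array of 4 h in batch 6 holds 37 genes, against 643 with all arrays.

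The 15 largest rises in serum, among genes that passed and did not overlap in batch 6, were IL13RA2, AKAP12, CXCL8, ADAM19, PLAUR, TFPI2, MMP10, SPHK1, FOSL1, WAKMAR2, TNFAIP3, ADAMTS15, CEACAM1, HAS2 and OSBP2, with differences of 1.50 to 2.32. AKAP12, a scaffold that anchors protein kinase A and protein kinase C, was in batch 6 at 10.79 and 10.85 in the serum arrays of 4 h and 8 h and 8.35, 8.89 and 9.10 in the starved arrays, and at 10.59 to 11.04 in the serum arrays of batch 1 and 8.37 to 9.08 in the starved arrays of batches 2 and 3. Every serum array lay above every starved array, as for 4.18% of all genes (5.58% had every serum array lower). The date subtraction gave the serum arrays of batch 1 the mean of those of batch 6. Their side is therefore not an independent check, here and for the genes below. The difference was 2.15 (SE 0.30, adjusted p = 3.05e-05).

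CXCL8 encodes interleukin-8, which attracts neutrophils. It was in batch 6 at 11.32 and 11.09 in the serum arrays of 4 h and 8 h and 8.72, 9.34 and 9.16 in the starved arrays, and at 10.65 to 11.48 in the serum arrays of batch 1 and 8.96 to 10.03 in the starved arrays of batches 2 and 3. Groups did not overlap, with 1 starved array of batch 3 nearest to the serum arrays, and the difference was 1.98 (SE 0.32, adjusted p = 2.77e-04). PLAUR, the receptor that holds urokinase at the cell surface, was in batch 6 at 10.47 and 9.88 in the serum arrays of 4 h and 8 h and 8.17, 8.43 and 8.49 in the starved arrays, and at 10.03 to 10.26 in the serum arrays of batch 1 and 8.20 to 8.74 in the starved arrays of batches 2 and 3. Its starved arrays spanned a narrow range, well below all serum arrays, and it differed by 1.80 (SE 0.20, adjusted p = 4.89e-07).

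TFPI2, a secreted inhibitor of serine proteases, was in batch 6 at 10.59 and 10.72 in the serum arrays of 4 h and 8 h and 9.20, 9.05 and 8.51 in the starved arrays, with a difference of 1.68 (SE 0.27, adjusted p = 2.54e-04). OSBP2, an oxysterol-binding protein, was at 6.77 and 6.73 in the serum arrays of 4 h and 8 h and 5.28, 5.02 and 5.32 in the starved arrays, with a difference of 1.50 (SE 0.17, adjusted p = 4.89e-07). These 2 genes, AKAP12, CXCL8 and PLAUR were the 5 of the 15 that passed whichever of the 12 arrays was left out. The other 10 did not pass without the serum array of 4 h in batch 6, with adjusted p-values between 0.0505 for IL13RA2 and 0.413 for WAKMAR2, and kept their direction.

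IL13RA2, a decoy receptor for interleukin-13, was at 5.80 and 6.31 in the serum arrays of 4 h and 8 h and 2.74, 3.74 and 3.04 in the starved arrays, a difference of 2.32 (SE 0.45, adjusted p = 0.0027). Its starved arrays, at 2.74 to 4.26, lay below the median level of all probe sets on an array (5.005 to 5.199), so the size of its difference is uncertain. SPHK1, the kinase that makes sphingosine 1-phosphate, was at 6.56 ± 0.21 in serum (SD, n = 5) and 4.92 ± 0.21 starved (SD, n = 7), a difference of 1.64 (SE 0.29, adjusted p = 8.74e-04). HAS2, a synthase of hyaluronan, was at 10.00 ± 0.22 in serum (SD, n = 5) and 8.45 ± 0.46 starved (SD, n = 7), a difference of 1.55 (SE 0.31, adjusted p = 0.0032). WAKMAR2 is a long noncoding RNA next to TNFAIP3, and both rose, by 1.59 and 1.58. The starved arrays of WAKMAR2 (3.42 to 4.79) and the starved mean of SPHK1 also lay below the median level of an array. The sizes of the differences of WAKMAR2 and SPHK1 are therefore uncertain. CEACAM1, a cell adhesion molecule, rose by 1.55 (adjusted p = 0.036), with starved arrays spread between 5.47 and 7.41. The serum array of 8 h in batch 6 was also needed for the calls of WAKMAR2, CEACAM1, ADAMTS15 and MMP10, replicate 1 of the starved 4 h arrays of batch 6 for those of WAKMAR2, CEACAM1 and MMP10, and the starved 8 h arrays of batches 2 and 6 for that of MMP10.

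**Figure D2:**
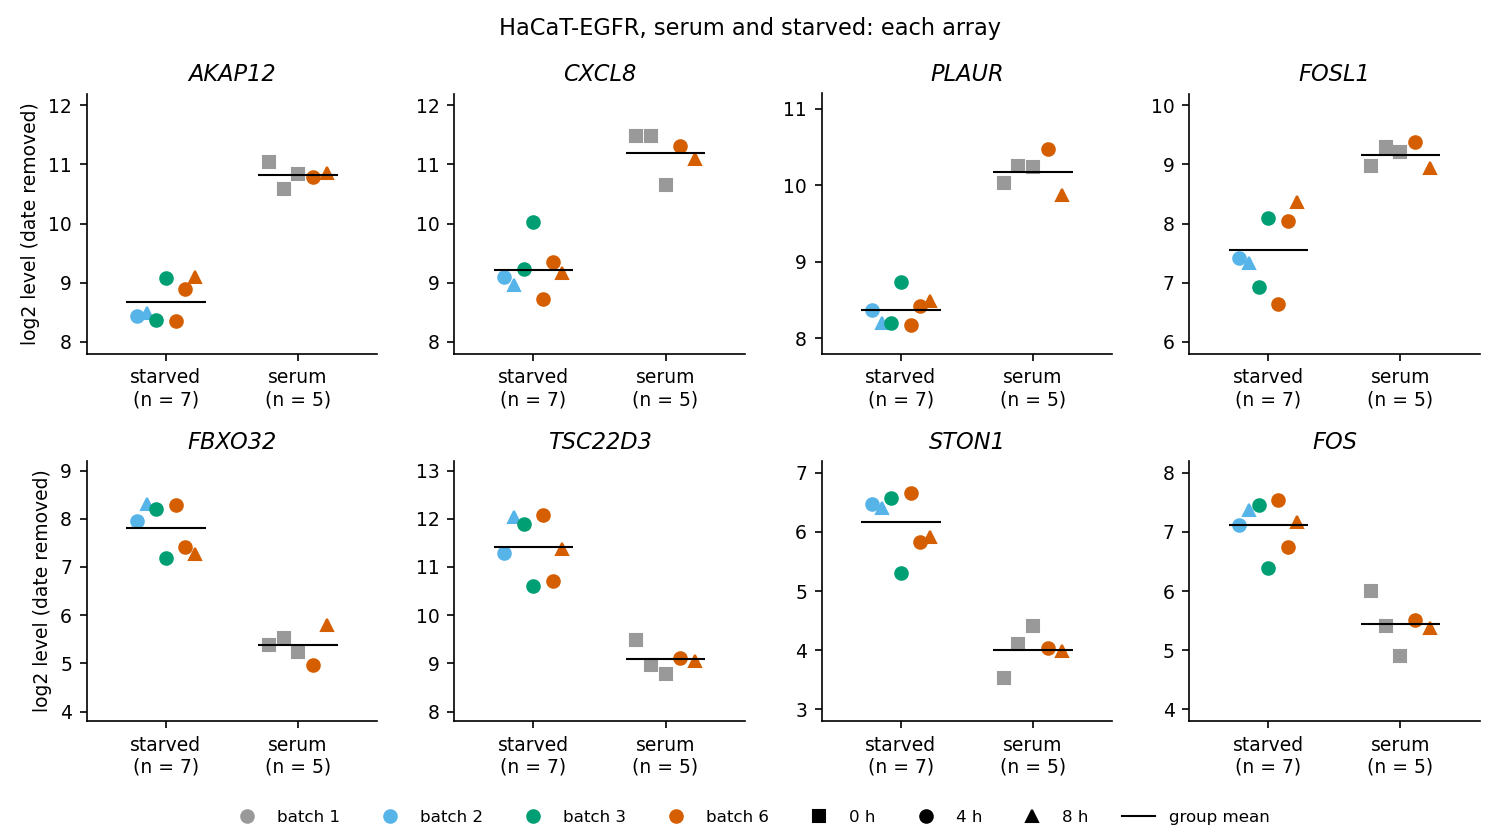
Log2 level after date removal (y axis) of 4 genes that rose and 4 that fell in serum, on each of the 12 HaCaT-EGFR arrays. Colour gives the batch, marker shape the time and lines the mean of a group. AKAP12 lies at 10.59 or above in serum and at 9.10 or below in starved cells, FBXO32 at 5.80 or below in serum and at 7.20 or above in starved cells.

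Promoter sequences from RefSeq (GRCh38.p14, 250 bases before the annotated gene start) were found for 10 of the 15 risen genes. The AP-1 motif TGANTCA, searched on both strands, was in 5 of the 10, those of CXCL8, PLAUR, TFPI2, MMP10 and OSBP2, against 6.6% of 27305 promoters and 9.84% of the 193 promoters found for all genes that rose. Among the 15 largest falls it was in 2 of 8 promoters found, those of VAV3 and SOX6, and among all genes that fell in 5.33% of 319. The NF-κB site, searched by its consensus on both strands, was in 3 of the 10 and in 20 of the 193 (10.4%), against 5.05% of all promoters, and the promoters of TNFAIP3 and CXCL1 are shown with those 5 because both genes are inducible by NF-κB and rose. A match is a description of letters, and binding was not measured. Capitals mark the AP-1 motif in the first 5 sequences and NF-κB sites in the last 2. The sequences run 5′ to 3′ up to the base before the gene start.
CXCL8 (chr4:73740319-73740568, plus strand): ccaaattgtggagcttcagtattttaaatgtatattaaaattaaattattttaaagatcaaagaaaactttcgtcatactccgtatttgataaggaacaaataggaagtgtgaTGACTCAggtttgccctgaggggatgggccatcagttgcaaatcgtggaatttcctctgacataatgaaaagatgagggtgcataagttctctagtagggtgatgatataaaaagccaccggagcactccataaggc
PLAUR (chr19:43670170-43670419, minus strand): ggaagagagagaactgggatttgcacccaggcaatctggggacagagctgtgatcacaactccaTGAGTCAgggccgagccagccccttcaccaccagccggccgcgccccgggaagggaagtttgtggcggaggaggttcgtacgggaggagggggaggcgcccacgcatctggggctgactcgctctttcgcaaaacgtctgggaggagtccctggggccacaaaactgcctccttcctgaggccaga
TFPI2 (chr7:93890754-93891003, minus strand): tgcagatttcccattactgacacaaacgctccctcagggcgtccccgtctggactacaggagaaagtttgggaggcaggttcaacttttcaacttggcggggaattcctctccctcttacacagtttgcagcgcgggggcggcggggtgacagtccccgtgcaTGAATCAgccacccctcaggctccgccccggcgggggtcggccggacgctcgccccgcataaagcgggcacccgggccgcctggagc
MMP10 (chr11:102780629-102780878, minus strand): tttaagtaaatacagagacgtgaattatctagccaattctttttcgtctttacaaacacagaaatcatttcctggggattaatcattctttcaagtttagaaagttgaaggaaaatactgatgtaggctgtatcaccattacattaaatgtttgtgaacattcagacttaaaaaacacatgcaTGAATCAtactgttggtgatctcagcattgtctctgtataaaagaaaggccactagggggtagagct
OSBP2 (chr22:30764003-30764252, plus strand): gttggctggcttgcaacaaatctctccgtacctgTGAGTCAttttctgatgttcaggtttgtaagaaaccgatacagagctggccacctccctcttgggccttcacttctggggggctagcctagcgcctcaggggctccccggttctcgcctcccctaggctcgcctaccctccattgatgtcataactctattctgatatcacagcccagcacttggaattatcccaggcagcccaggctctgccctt
TNFAIP3 (chr6:137867009-137867258, plus strand): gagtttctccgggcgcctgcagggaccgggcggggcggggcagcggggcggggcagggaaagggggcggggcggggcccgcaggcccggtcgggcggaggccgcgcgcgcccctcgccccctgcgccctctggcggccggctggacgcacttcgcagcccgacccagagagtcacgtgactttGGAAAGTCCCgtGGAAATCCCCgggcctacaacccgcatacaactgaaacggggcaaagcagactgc
CXCL1 (chr4:73869143-73869392, plus strand): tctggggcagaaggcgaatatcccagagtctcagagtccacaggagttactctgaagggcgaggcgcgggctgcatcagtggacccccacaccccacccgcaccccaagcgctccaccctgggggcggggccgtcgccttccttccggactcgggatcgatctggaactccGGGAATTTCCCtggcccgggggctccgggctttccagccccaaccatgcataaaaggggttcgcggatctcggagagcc
Counted from the gene start, the AP-1 motif began at -137 in CXCL8, -186 in PLAUR, -87 in TFPI2, -67 in MMP10 and -216 in OSBP2. TNFAIP3 held a pair of NF-κB sites, which began at -67 and -55, and CXCL1 overlapping matches from -79. NF-κB sites were also in 11 of the 22 promoters found for the list of NF-κB targets described next.

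**Figure D3:**
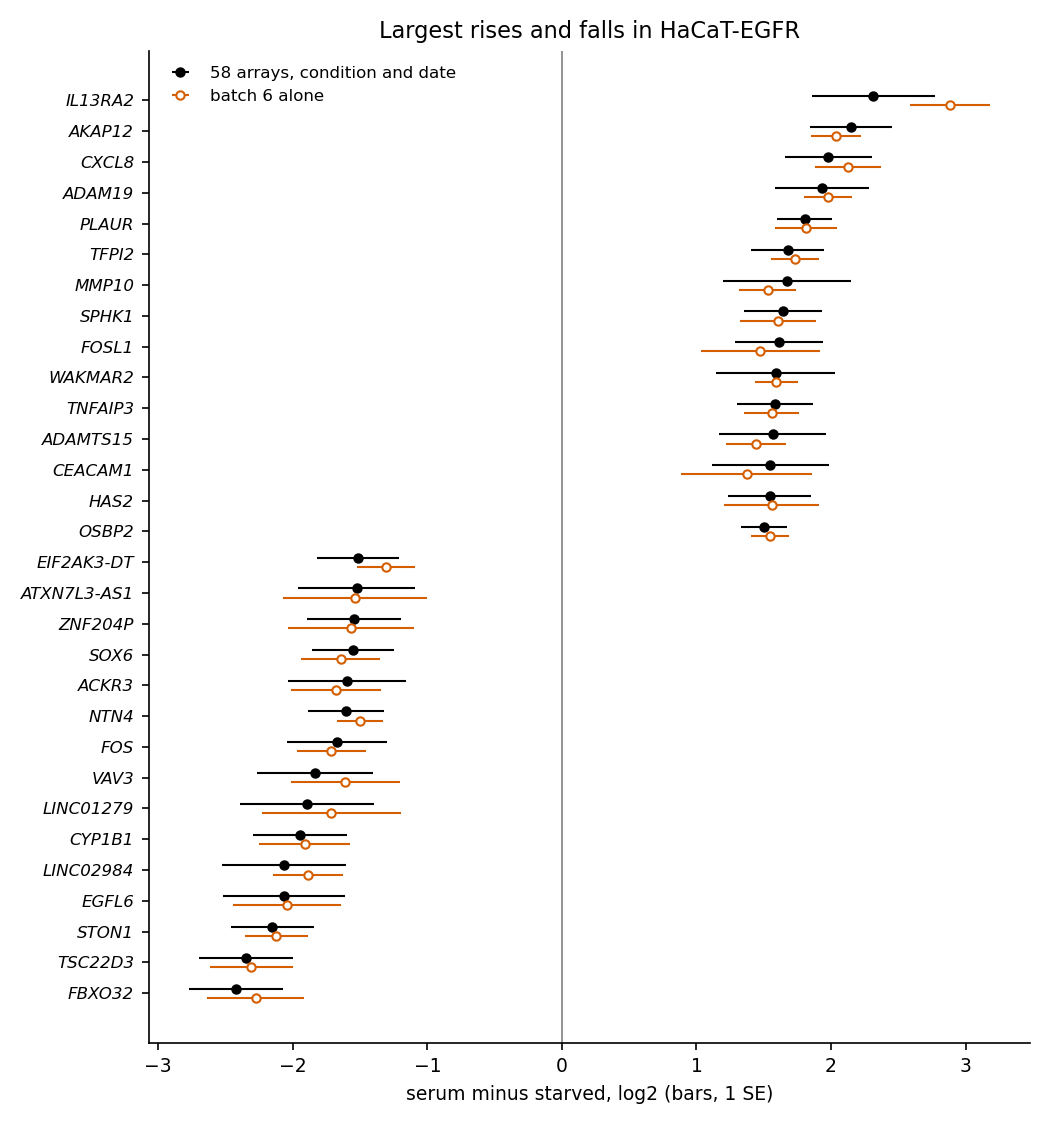
Difference between serum and starved HaCaT-EGFR cells (x axis, log2, bars 1 SE) for the 15 largest rises and 15 largest falls, in the fit of 58 arrays with date (filled) and in batch 6 alone (open). Differences run from -2.42 for FBXO32 to 2.32 for IL13RA2 in the larger fit, and the 2 fits share the arrays of batch 6, on which the genes were also chosen, so their common side of 0 is not an independent check.

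Among 27 measured NF-κB targets and inflammatory genes, 5 rose and 0 fell, against 1.26% and 1.99% of all genes, and the list's median difference was 0.395 against -0.001 over all genes. The 5 were CXCL8, TNFAIP3, CXCL1, IL23A and NFKB2. TNFAIP3, the A20 protein that ends NF-κB signaling, was in batch 6 at 10.36 and 9.90 in the serum arrays of 4 h and 8 h and 8.37, 8.60 and 8.74 in the starved arrays, without overlap, a difference of 1.58 (SE 0.28, adjusted p = 9.03e-04). CXCL1, another neutrophil chemokine, was at 9.65 and 9.76 in the serum arrays of 4 h and 8 h and 7.77, 8.12 and 8.26 in the starved arrays, a difference of 1.45 (SE 0.30, adjusted p = 0.0051). IL23A, a subunit of interleukin-23, rose by 1.04 (adjusted p = 0.03), and NFKB2, which encodes the p100 precursor of p52, by 0.82 (adjusted p = 0.017). CXCL2 and CXCL3, close relatives of CXCL1, differed by 0.86 and 0.91 and did not pass (adjusted p = 0.12 and 0.098), although their batch 6 arrays did not overlap. In all, batch 6 arrays of 14 of the 27 genes did not overlap with serum higher (12.3% of all genes) and of 1 with serum lower (15.7%). Batch 6 alone also called 5 of the list, and 1, CXCL8, passed without the serum array of 4 h.

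Secreted and membrane-bound proteases rose in 5 of 20 measured genes and fell in 0, against 1.26% and 1.99% of all genes, with a median of 0.365. ADAM19, a membrane metalloprotease, was in batch 6 at 12.07 and 11.63 in the serum arrays of 4 h and 8 h and 9.72, 10.07 and 9.82 in the starved arrays, and differed by 1.93 (SE 0.35, adjusted p = 9.41e-04). MMP10 (stromelysin-2) was at 6.30 and 6.60 in the serum arrays of 4 h and 8 h and 4.81, 4.92 and 5.04 in the starved arrays, a difference of 1.67 (SE 0.48, adjusted p = 0.041). ADAMTS15, a protease of the extracellular matrix, was at 7.06 and 7.14 in the serum arrays of 4 h and 8 h and 5.42, 5.44 and 6.11 in the starved arrays, a difference of 1.57 (SE 0.40, adjusted p = 0.02). ADAM8 rose by 1.11 (adjusted p = 0.0034). MMP3 (stromelysin-1) was at 4.02 and 5.78 in the serum arrays of 4 h and 8 h and 3.08, 3.28 and 3.05 in the starved arrays, so that serum and starved arrays of the same batch differed by 0.84 at 4 h and by 2.72 at 8 h, and its difference of 1.32 (SE 0.39, adjusted p = 0.05) was lost without any 1 of 9 arrays. Of these 5, MMP3 alone passed without the serum array of 4 h. MMP3 and MMP10 were dim, MMP3 at 4.90 ± 0.63 in serum (SD, n = 5) and 3.58 ± 0.53 starved (SD, n = 7) and MMP10 at 6.45 ± 0.46 in serum (SD, n = 5) and 4.78 ± 0.26 starved (SD, n = 7), with starved means below the median level of an array, so the sizes of their differences are uncertain.

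On a list of plasminogen activation and serpins 2 of 10 measured genes rose and 0 fell (1.26% and 1.99% of all genes, median 0.19). They were PLAUR, described above, and SERPINB8, by 0.72 (SE 0.16, adjusted p = 0.006). SERPINB8 is an intracellular serpin, listed here as a serpin and not as a part of plasminogen activation. PLAU, urokinase itself and the ligand of PLAUR, differed by 0.81 (SE 0.29, adjusted p = 0.12). SERPINB8 was lost without the serum array of 4 h.

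Growth factors and cytokine ligands rose in 3 of 22 measured genes and fell in 1 (1.26% and 1.99% of all genes, median 0.28). ANGPTL4, a secreted inhibitor of lipoprotein lipase, was at 6.92 ± 0.31 in serum (SD, n = 5) and 5.59 ± 0.29 starved (SD, n = 7) and rose by 1.33 (adjusted p = 9.41e-04). IGFL1 rose by 1.26 (adjusted p = 0.016), VEGFC, a lymphatic growth factor, by 0.90 (adjusted p = 0.02), and WNT5A fell by 0.94 (adjusted p = 0.027). None of the 4 passed without the serum array of 4 h. WNT5A was dim, at 3.20 to 3.66 in serum and 3.93 to 4.73 starved, below the median level of an array, so the size of its difference is uncertain. Of 5 measured EGFR ligands 1 rose: TGFA, transforming growth factor alpha, was in batch 6 at 9.81 and 9.61 in the serum arrays of 4 h and 8 h and 8.20, 8.52 and 8.58 in the starved arrays, a difference of 1.24 (SE 0.16, adjusted p = 1.10e-05) that passed whichever array was left out. HBEGF and EREG differed by 0.34 (SE 0.31) and 0.16 (SE 0.21) and did not pass.

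Of 27 measured targets of SRF and MRTF in the actin cytoskeleton 6 rose and 0 fell, against 1.26% and 1.99% of all genes. Their median was 0.341, with 20 of 27 differences above 0. TPM4, a tropomyosin, rose by 0.87 (adjusted p = 0.047), FERMT2, the integrin activator kindlin-2, by 0.84 (adjusted p = 0.0027), CALD1, caldesmon, by 0.59 (adjusted p = 0.013), the integrin subunit ITGA5 by 0.53 (adjusted p = 0.026), PDLIM7 by 0.49 (adjusted p = 0.028) and VCL, vinculin, by 0.46 (adjusted p = 0.013). FERMT2 was in batch 6 at 10.27 and 9.75 in the serum arrays of 4 h and 8 h and 8.87, 9.33 and 9.39 in the starved arrays, without overlap. MYH9, a nonmuscle myosin heavy chain, differed by 0.64 (adjusted p = 0.06) and ACTA2, smooth muscle actin, by -0.79 (adjusted p = 0.068), and neither passed. With arrays centred on their medians 3 of the list passed, in batch 6 alone 2, and without the serum array of 4 h none. Of 23 measured targets of YAP and TEAD, which overlap in function with this list, 0 passed (median -0.02).

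Of 19 measured integrins and genes of basal adhesion 3 rose and 0 fell (1.26% and 1.99% of all genes, median 0.145): ITGA5, LAMB3 and ITGA2. LAMB3, a chain of the basement membrane protein laminin-332, was at 11.44 ± 0.17 in serum (SD, n = 5) and 10.17 ± 0.36 starved (SD, n = 7), a difference of 1.27 (SE 0.26, adjusted p = 0.0049), and ITGA2, the collagen-binding integrin subunit, rose by 0.88 (adjusted p = 0.0054). The simple epithelial keratins KRT18 and KRT8 rose by 1.30 and 0.83 (adjusted p = 0.013 and 0.0019), as 2 of 6 measured stress and wound keratins (median -0.071). Neither they nor the 3 adhesion genes passed without the serum array of 4 h. Of 28 measured genes of keratinocyte differentiation 0 passed (median 0.158), among them IVL, involucrin, with 0.64 (SE 0.61) and KRT1 with 0.53 (SE 0.52).

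**Figure D4:**
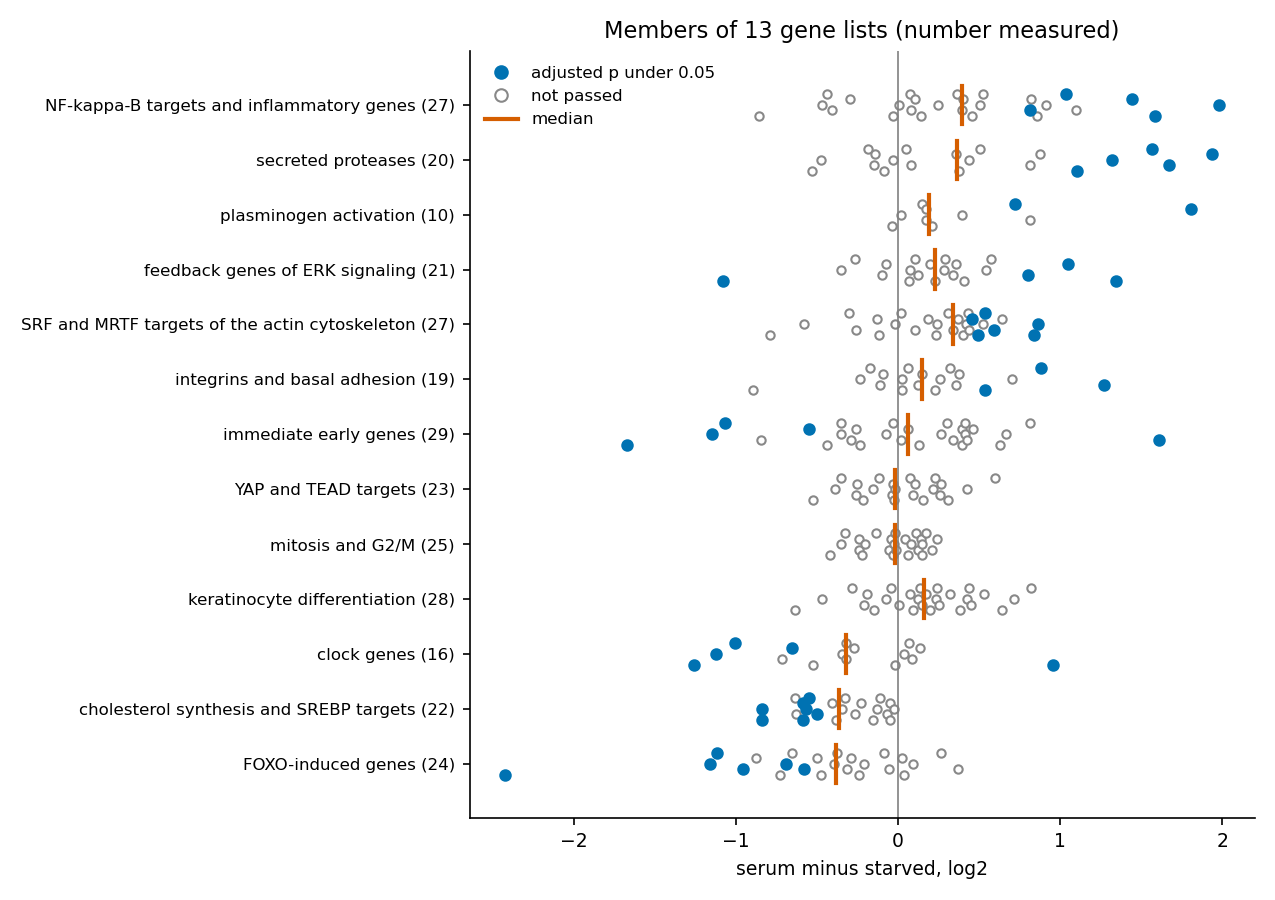
Difference between serum and starved HaCaT-EGFR cells (x axis, log2) for each measured member of 13 gene lists. Filled points passed an adjusted p of 0.05, open points did not, and vertical bars are list medians, which run from -0.385 for FOXO-induced genes to 0.395 for NF-κB targets and inflammatory genes.

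Members of the AP-1 family and other immediate early genes moved in opposite directions. Of 29 measured immediate early genes 1 rose and 4 fell (1.26% and 1.99% of all genes, median 0.062). FOSL1 (FRA-1), an AP-1 subunit of late G1 and migrating cells, was in batch 6 at 9.37 and 8.95 in the serum arrays of 4 h and 8 h and 6.64, 8.04 and 8.37 in the starved arrays, and at 8.98 to 9.30 in the serum arrays of batch 1 and 6.94 to 8.10 in the starved arrays of batches 2 and 3. All serum arrays lay above all starved arrays, and the difference was 1.61 (SE 0.33, adjusted p = 0.0039). FOS, the classical immediate early AP-1 subunit, was in batch 6 at 5.50 and 5.37 in the serum arrays of 4 h and 8 h and 7.54, 6.74 and 7.18 in the starved arrays, and at 4.91 to 6.01 in the serum arrays of batch 1 and 6.39 to 7.45 in the starved arrays of batches 2 and 3. All starved arrays lay above all serum arrays, a difference of -1.67 (SE 0.37, adjusted p = 0.0087). FOSL2 fell by 1.15 (adjusted p = 0.013), ATF3 by 1.07 (adjusted p = 0.048) and JUNB by 0.55 (adjusted p = 0.03), and FOSB differed by -0.84 without passing (adjusted p = 0.12). None of the 5 that passed did so without the serum array of 4 h, and FOS, FOSL2, ATF3 and JUNB did not pass without the serum array of 8 h. In the probe set with the largest variance, and not the brightest, 3 of the list rose and 3 fell.

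Feedback genes of ERK signaling rose in 3 of 21 measured genes and fell in 1 (1.26% and 1.99% of all genes, median 0.23). DUSP4, a nuclear phosphatase of ERK, was in batch 6 at 10.08 and 9.70 in the serum arrays of 4 h and 8 h and 7.61, 8.96 and 9.07 in the starved arrays, a difference of 1.35 (SE 0.25, adjusted p = 0.0017). Its starved arrays of batch 6 spread widely, and 1 of them lay below all 6 others of the starved group. SPRY4, a Sprouty inhibitor of receptor signaling, rose by 1.05 (adjusted p = 0.013), and the nuclear phosphatase DUSP5 by 0.80 (adjusted p = 0.039). DUSP1, a phosphatase that prefers p38 and JNK and is also induced by glucocorticoids and stress, fell by 1.08 (adjusted p = 0.028). DUSP6 and ERRFI1 differed by 0.57 (SE 0.23) and 0.54 (SE 0.21) and did not pass. Batch 6 alone called 0 of the list (3097 genes had an unadjusted p under 0.05 in that fit), and without the serum array of 4 h 0 passed.

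The largest falls were FBXO32, TSC22D3, STON1, EGFL6, LINC02984, CYP1B1, LINC01279, VAV3, FOS, NTN4, ACKR3, SOX6, ZNF204P, ATXN7L3-AS1 and EIF2AK3-DT, with differences of -2.42 to -1.52. FBXO32 (atrogin-1), a ubiquitin ligase of protein breakdown that FOXO factors induce, was in batch 6 at 4.97 and 5.80 in the serum arrays of 4 h and 8 h and 8.29, 7.42 and 7.27 in the starved arrays, and at 5.24 to 5.53 in the serum arrays of batch 1 and 7.20 to 8.30 in the starved arrays of batches 2 and 3. Starved and serum arrays were more than 1 log2 unit apart at their nearest, and the difference was -2.42 (SE 0.35, adjusted p = 4.49e-05). TSC22D3 (GILZ), a leucine zipper protein induced by glucocorticoids and by FOXO3, was in batch 6 at 9.12 and 9.04 in the serum arrays of 4 h and 8 h and 12.07, 10.71 and 11.38 in the starved arrays, and at 8.79 to 9.48 in the serum arrays of batch 1 and 10.61 to 12.04 in the starved arrays of batches 2 and 3. It differed by -2.35 (SE 0.35, adjusted p = 7.33e-05).

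STON1, an adaptor of endocytosis, was in batch 6 at 4.04 and 3.98 in the serum arrays of 4 h and 8 h and 6.66, 5.83 and 5.91 in the starved arrays, a difference of -2.15 (SE 0.31, adjusted p = 4.10e-05). FBXO32, TSC22D3 and STON1 were the 3 of the 15 that passed whichever array was left out, and the other 12 did not pass without the serum array of 4 h (adjusted p = 0.0602 for SOX6 to 0.838 for ZNF204P). EGFL6, a secreted protein with EGF repeats, was at 4.47 and 4.16 in the serum arrays of 4 h and 8 h and 6.84, 6.09 and 6.14 in the starved arrays. All serum arrays of STON1 (3.52 to 4.41), EGFL6 (3.66 to 4.64) and SOX6 (3.95 to 4.28) lay below the median level of an array. So did those of LINC02984 (4.14 to 4.80) and ATXN7L3-AS1 (4.05 to 4.67), and the sizes of these differences are uncertain. CYP1B1, a cytochrome P450 that the aryl hydrocarbon receptor induces, fell by 1.95 (adjusted p = 9.03e-04). NTN4, a netrin of basement membranes, fell by 1.60 (adjusted p = 8.45e-04), and ACKR3, a scavenger receptor for CXCL12, by 1.60 (adjusted p = 0.033). VAV3, a guanine nucleotide exchange factor, fell by 1.83 (adjusted p = 0.013), but 1 starved array of batch 3 (5.36) lay below a serum array of batch 1 (5.39). ZNF204P, a pseudogene, was at 4.71 and 6.74 in the serum arrays of 4 h and 8 h and 7.52, 6.82 and 7.54 in the starved arrays, so its 2 serum arrays of batch 6 lay far apart. EGFL6 and FOS were also lost without the serum array of 8 h, LINC01279 and ACKR3 without that array or replicate 1 of the starved 4 h arrays of batch 6, and ATXN7L3-AS1 without either of these or the starved 8 h array of batch 2.

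FOXO-induced genes fell in 6 of 24 measured genes and rose in 0, against 1.99% and 1.26% of all genes. Their median was -0.385, with 19 of 24 differences below 0. After FBXO32, KLHL24 fell by 1.16 (adjusted p = 0.0038), SESN3, a sestrin that restrains mTORC1, by 1.12 (adjusted p = 0.033), CITED2 by 0.95 (adjusted p = 0.031), the transcriptional repressor BCL6 by 0.69 (adjusted p = 0.04) and CDKN1B, the CDK inhibitor p27, by 0.58 (adjusted p = 0.025). All serum arrays of SESN3 (3.65 to 4.91) lay below the median level of an array, so the size of its difference is uncertain. PIK3IP1, an inhibitor of PI3K, differed by -0.88 (SE 0.29, adjusted p = 0.085), and TXNIP, which limits glucose uptake, by -0.73 (SE 0.48, adjusted p = 0.48). Batch 6 arrays of 12 of the 24 did not overlap with serum lower (15.7% of all genes) and of 1 with serum higher (12.3%). FBXO32 was the 1 of the 6 that passed without the serum array of 4 h, and batch 6 alone called 2. The FOXO motif GTAAACA was on either strand in 2 of the 21 promoters found for this list and in 3.76% of those of all genes that fell, against 2.98% of all promoters.

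The glucocorticoid-induced genes showed no common direction: of 19 measured 1 rose (ANGPTL4) and 2 fell (TSC22D3 and DUSP1), with a median of -0.037. Genes of the amino acid response and ATF4 fell in 2 of 23 and rose in 0 (1.99% and 1.26% of all genes, median -0.131). DDIT4 (REDD1), an inhibitor of mTORC1 that stress and glucocorticoids induce, was in batch 6 at 11.70 and 11.64 in the serum arrays of 4 h and 8 h and 13.13, 12.52 and 13.06 in the starved arrays, and at 11.55 to 11.81 in the serum arrays of batch 1 and 12.57 to 12.96 in the starved arrays of batches 2 and 3. It was lower on every serum array, by a difference of -1.19 (SE 0.21, adjusted p = 8.84e-04) that passed whichever array was left out. SLC7A5, the large neutral amino acid transporter, fell by 0.69 (adjusted p = 0.03) and was lost without any 1 of 4 arrays. DDIT3 (CHOP) differed by -0.85 (SE 0.25, adjusted p = 0.053).

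Genes of cholesterol synthesis and other SREBP targets fell in 7 of 22 measured genes and rose in 0, against 1.99% and 1.26% of all genes. All 22 differences were below 0 (median -0.363). MVK, mevalonate kinase, was in batch 6 at 6.49 and 6.61 in the serum arrays of 4 h and 8 h and 7.22, 7.13 and 7.14 in the starved arrays, a difference of -0.59 (SE 0.11, adjusted p = 9.41e-04). IDI1, isopentenyl diphosphate isomerase, was at 10.36 and 9.81 in the serum arrays of 4 h and 8 h and 11.14, 10.89 and 10.91 in the starved arrays, a difference of -0.84 (SE 0.21, adjusted p = 0.017). SREBF1, which encodes SREBP-1, fell by 0.84 (adjusted p = 0.029), INSIG1, the sterol sensor that holds SREBP back, by 0.59 (adjusted p = 0.028), and the enzymes MSMO1, SQLE and SC5D by 0.57, 0.55 and 0.50 (adjusted p = 0.042, 0.011 and 0.025). HMGCS1 and LSS differed by -0.63 and -0.63 without passing (adjusted p = 0.21 and 0.099). Batch 6 arrays of 15 of the 22 did not overlap with serum lower (15.7% of all genes) and of 0 with serum higher (12.3%). SQLE alone passed without the serum array of 4 h, 1 of the list without the serum array of 8 h, 2 without replicate 1 of the starved 4 h arrays of batch 6, and 1 in batch 6 alone.

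Clock genes fell in 4 of 16 measured genes and rose in 1 (1.99% and 1.26% of all genes, median -0.322). BMAL1, the activator of the clock, rose by 0.96 (adjusted p = 0.0057), and its repressor NR1D2 (REV-ERBβ) fell by 0.66 (adjusted p = 0.02). CIART, a repressor of the BMAL1 complex, was in batch 6 at 7.04 and 6.89 in the serum arrays of 4 h and 8 h and 8.17, 7.85 and 8.09 in the starved arrays, a difference of -1.12 (SE 0.24, adjusted p = 0.0057). BHLHE41 (DEC2) fell by 1.26 (adjusted p = 0.01) and the output activator TEF by 1.00 (adjusted p = 0.0065). BHLHE40 and PER3 differed by -0.71 (adjusted p = 0.058) and -0.53 (adjusted p = 0.14). None of the 5 passed without the serum array of 4 h, and the clock hour of harvest is not given in the sources used here.

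Few genes of the cell cycle passed, where 1.26% of all genes rose and 1.99% fell. Of 29 measured genes of G1/S and DNA replication 1 rose, CDK6, by 0.59 (adjusted p = 0.019), and 0 fell (median -0.054). Of 25 genes of mitosis and G2/M 0 passed, with a median of -0.021 and 0 whose batch 6 arrays did not overlap (28% of all genes, in either direction). Of 19 CDK inhibitors and genes of quiescence 2 fell, CDKN2B (p15) by 0.76 (adjusted p = 0.042) and CDKN1B, and 0 rose (median -0.262). Of 27 genes of ribosome biogenesis 1 rose, the nucleolar helicase DDX21, by 0.41 (adjusted p = 0.031), with 24 of 27 differences above 0 (median 0.234). None of these 4 genes passed without the serum array of 4 h. In simulated data with the same design, but with noise independent between genes, changes of 0.5 were recovered for 30% of genes and changes of 1 for 84%. Recovery in the real data may differ, and most differences in these lists were smaller than 0.5.

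Most of the other lists held a single call, where 1.26% of all genes rose and 1.99% fell. Such a call describes the gene and not its list. TGF-β targets rose in 1 of 22 (SKIL, by 0.67, adjusted p = 0.034, median 0.287) and fell in 0, with THBS1, thrombospondin-1, at 0.81 (adjusted p = 0.12). Receptors and enzymes of lysophosphatidic acid and sphingosine 1-phosphate rose in 1 of 14 (SPHK1, median 0.028), with the receptor S1PR3 at 1.04 (adjusted p = 0.11). S1PR3 was at 3.75 to 4.64 in starved cells, below the median level of an array, so the size of its difference is uncertain. Hypoxia genes rose in 2 of 20 (ANGPTL4 and PFKFB3, a regulator of glycolysis, by 0.53, adjusted p = 0.0097) and fell in 1 (CITED2), with a median of -0.034. Notch genes fell in 1 of 17, LFNG, a glycosyltransferase of Notch receptors, which was in batch 6 at 7.45 and 7.09 in the serum arrays of 4 h and 8 h and 8.40, 8.02 and 8.46 in the starved arrays, a difference of -1.03 (SE 0.18, adjusted p = 8.84e-04) that passed whichever array was left out (median -0.078). Interferon-stimulated genes rose in 1 of 19, IFIT2 (median 0.19), and ISG15, IFIT1 and IFIT3 differed by 0.84, 0.75 and 0.79 without passing. Autophagy and lysosome genes fell in 1 of 22, the cargo receptor SQSTM1, by 0.67 (adjusted p = 0.02, median -0.162). Receptor tyrosine kinases rose in 1 of 16, EPHA2, by 0.76 (adjusted p = 0.043, median -0.008), and PKA anchoring and cAMP genes in 1 of 14, AKAP12 (median 0.039). SKIL, PFKFB3, IFIT2, SQSTM1 and EPHA2 did not pass without the serum array of 4 h.

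Keratinocyte markers were high in both media. The mean log2 level of 15 measured keratinocyte markers was 10.756 to 11.032 on the serum arrays and 10.348 to 10.899 on the starved arrays, and 1 of the 15, LAMB3, passed. Of 14 fibroblast, 6 melanocyte, 9 leukocyte and 9 endothelial markers 0 passed, and their mean levels were 4.95 to 5.05, 4.65 to 4.79, 4.34 to 4.56 and 4.38 to 4.57 in serum and 4.87 to 5.11, 4.53 to 4.84, 4.39 to 4.59 and 4.27 to 4.48 in starved cells. Fewer cells of a type and less RNA per cell cannot be told apart in such bulk samples.

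Batch 6 holds HaCaT-EGFR arrays with EGF (4 h, 4 h and 8 h) and with serum and gefitinib (4 h and 8 h) beside the serum and starved arrays, so the members' levels can be set side by side. These comparisons share the starved or the serum arrays with the one above, in which the EGF arrays also carry weight, so each is given as its own values. Serum and EGF differed at an adjusted p of 0.05 for 11 genes (0.0556%), 10 of them higher in serum: CFLAR, IFIT2, KRT24, MYCT1, OSBP2, PLAUR, RIMKLB, RND3, SEMA3A and WFDC21P, with TRIM8 lower. All 10 had also risen in serum against starved cells (1.26% of all genes). Both comparisons use the serum arrays of batch 6, so this count is not an independent check. PLAUR was at 9.47, 9.09 and 8.98 with EGF, between starved and serum arrays, and exceeded EGF by 1.01 (SE 0.20, adjusted p = 0.049). IFIT2 was in batch 6 at 12.48 and 12.36 in the serum arrays of 4 h and 8 h and 11.38, 11.11 and 11.31 in the starved arrays, and at 10.63, 10.36 and 10.49 with EGF, below every starved array, so that serum exceeded EGF by 1.92 (SE 0.30, adjusted p = 0.0021). CFLAR, the caspase-8 inhibitor c-FLIP, was at 9.56 and 9.39 in the serum arrays of 4 h and 8 h and 8.40, 8.23 and 8.45 in the starved arrays, and at 8.98, 8.75 and 8.85 with EGF, and serum exceeded EGF by 0.60 (SE 0.13, adjusted p = 0.049). SEMA3A, a semaphorin, rose by 1.15 with serum and differed by 0.41 with EGF. RND3, a small GTPase of the actin cytoskeleton, rose by 0.68 with serum and differed by -0.05 with EGF. CFLAR and SEMA3A passed for serum against starved cells whichever array was left out. Of the 11 genes, 7 had an adjusted p of 0.049, close to the threshold.

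AKAP12 was at 10.65, 10.66 and 10.76 with EGF, just below the serum arrays of batch 6, and at 9.73 and 9.62 with serum and gefitinib, between starved and serum arrays. Gefitinib in serum passed for 353 genes (1.79%, 0.915% lower and 0.87% higher with gefitinib). Of the 15 largest rises 7 were lower with gefitinib, among them FOSL1 with -2.46 (SE 0.38, adjusted p = 1.07e-04), HAS2 with -1.97 (SE 0.36, adjusted p = 9.98e-04), IL13RA2 with -2.47 (SE 0.53, adjusted p = 0.0066) and CXCL8 with -1.79 (SE 0.38, adjusted p = 0.0054). Of the 15 largest falls 9 were higher with gefitinib, among them FBXO32 with 3.14 (SE 0.41, adjusted p = 4.96e-06) and STON1 with 2.46 (SE 0.36, adjusted p = 4.00e-05). Both comparisons use the serum arrays of batch 6, with opposite signs, and no test was made of the coincidence.

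Other genes did not pass for gefitinib. TNFAIP3 was at 10.12 and 9.39 with serum and gefitinib, a difference of -0.37 (SE 0.33, adjusted p = 0.73), WAKMAR2 differed by -0.15 (SE 0.52, adjusted p = 0.96), and ADAMTS15 by 0.14 (SE 0.47, adjusted p = 0.96). DDIT4 was at 11.61 and 11.69 with serum and gefitinib, as low as in serum alone, a difference of -0.02 (SE 0.24, adjusted p = 0.99). IFIT2 was at 13.02 and 12.48, a difference of 0.33 (SE 0.34, adjusted p = 0.79), and FOS differed by 0.23 (SE 0.43, adjusted p = 0.91). Among the ERK feedback genes, DUSP4 was at 7.30 and 6.72 with serum and gefitinib, below the 7.61 to 9.07 of all starved arrays, a difference from serum of -2.88 (SE 0.30, adjusted p = 3.39e-08), and SPRY4 differed by -2.53 (SE 0.29, adjusted p = 3.91e-07). In that list 10 of 21 genes were lower with gefitinib and 0 higher, and 8 of 24 FOXO-induced genes were higher and 0 lower. Of the 22 genes of cholesterol synthesis 1 was higher with gefitinib, MVK with 0.48 (SE 0.12, adjusted p = 0.028), and 0 lower, and of the 27 SRF and MRTF targets 0 passed either way, where 353 genes passed in all and 2489 had an unadjusted p under 0.05.

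**Figure D5:**
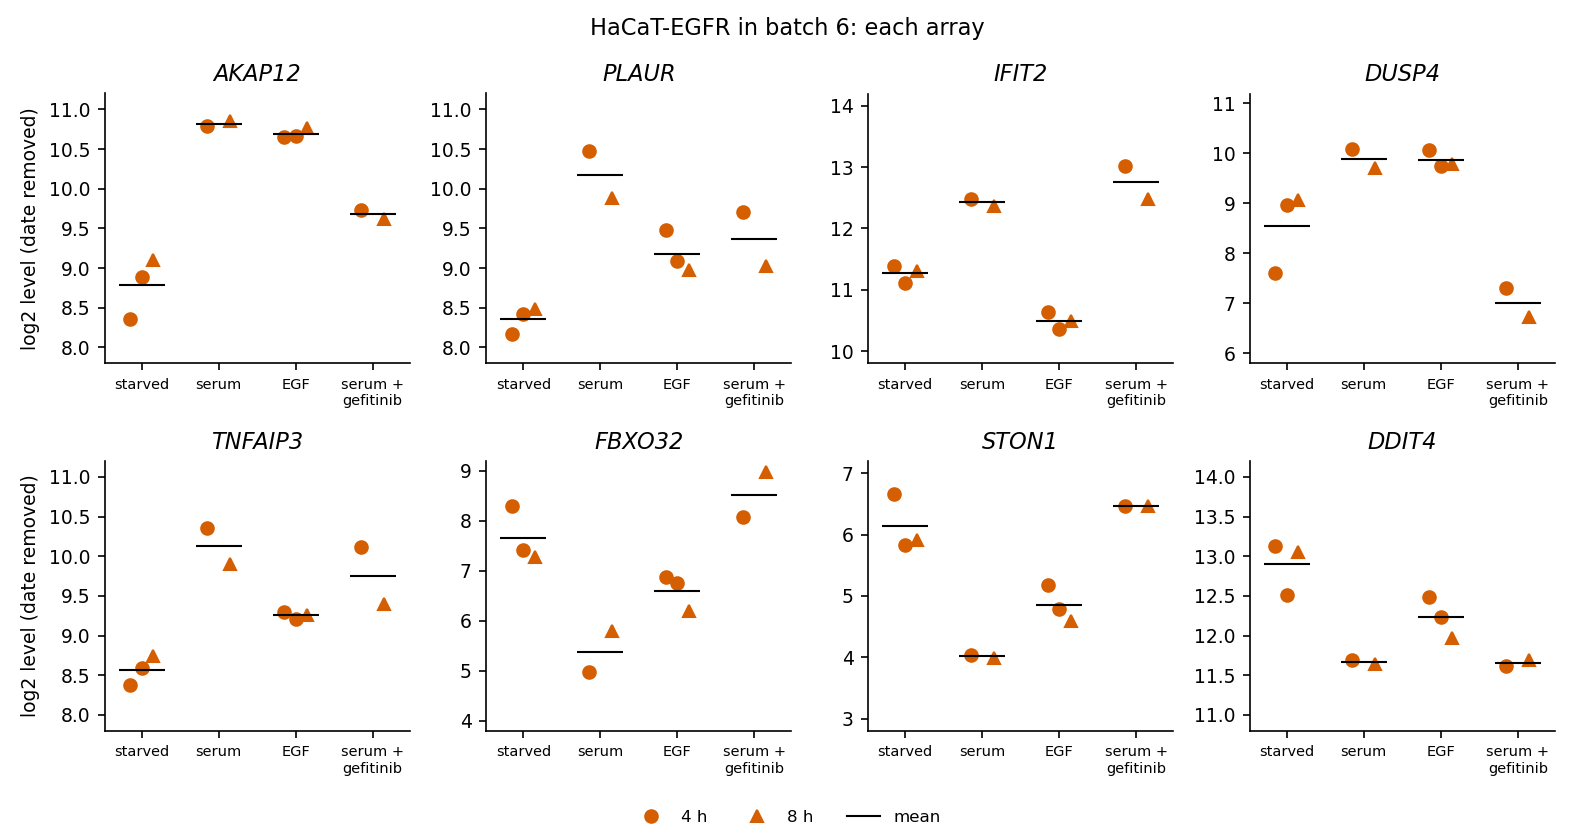
Log2 level after date removal (y axis) of 8 genes on each HaCaT-EGFR array of batch 6, starved (3 arrays), in serum (2), with EGF (3) and in serum with gefitinib (2). Lines are means. With gefitinib in serum DUSP4 lies at 7.30 and 6.72, below the starved arrays, and DDIT4 at 11.61 and 11.69, at the level of serum.

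Whether serum acted differently in the other lines was tested as an interaction in the same fit. Against HaCaT-vector 47 genes passed (0.238%), 5 of which were among the 643, and against HaCaT-p65 126 passed (0.637%), 8 of them among the 643. Of the 30 genes with the largest rises and falls 0 passed in either, with a median SE of the interaction of 0.503 and 0.445, and a gene that misses the threshold is not shown to respond alike in the lines. The serum arrays of both lines lie in batch 1, which is tied to the other batches only through HaCaT-EGFR in serum, so their own differences also run through the 2 HaCaT-EGFR serum arrays of batch 6 and are not independent of those above. In the interaction itself, the serum arrays compared are those of 0 h in batch 1. For HaCaT-EGFR these have weight 0 in the difference described above. Without the serum array of 4 h in batch 6, 46 and 119 interactions passed, and as many without that of 8 h. FBXO32 differed by -2.15 in HaCaT-vector and -1.48 in HaCaT-p65, CXCL8 by 1.86 and 1.84, and AKAP12 by 1.06 and 2.74.

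THBS2, thrombospondin-2, passed against both lines. In HaCaT-EGFR it was in batch 6 at 8.83 and 8.54 in the serum arrays of 4 h and 8 h and 9.20, 9.73 and 9.95 in the starved arrays, and fell by 0.95 (adjusted p = 0.038), whereas it differed by 1.62 in HaCaT-vector and 1.58 in HaCaT-p65. The interaction was -2.56 (SE 0.39, adjusted p = 2.11e-04) with HaCaT-vector and -2.53 (SE 0.34, adjusted p = 1.89e-05) with HaCaT-p65. NR2F1-AS1 also passed against both and fell less in HaCaT-EGFR (-0.51) than in HaCaT-vector (-1.43) and HaCaT-p65 (-1.34). SPMIP4 and SKIDA1 fell less than in HaCaT-vector, and MYO5B, a myosin of vesicle transport, rose less. Against HaCaT-p65, BCL6, FMO4, PLAG1 and KCNMB4 fell in HaCaT-EGFR and had differences of 0.40, 0.29, 0.32 and 0.29 in HaCaT-p65, and ITGA5 and PIK3CD, a catalytic subunit of PI3K, rose less (0.53 against 1.34 and 0.86 against 2.17). THBS2, SPMIP4, NR2F1-AS1, MYO5B, PIK3CD, KCNMB4, BCL6 and ITGA5 were among the genes whose change in HaCaT-EGFR itself needed the serum array of 4 h and at least 1 other array. Without the starved HaCaT-vector array of batch 6, 6 interactions passed in place of 47, and without the starved 8 h array of HaCaT-p65 in batch 2, 67 in place of 126.

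Within batch 6 the serum arrays were labelled 4 h and 8 h, as were the starved arrays, which gives 1 serum array per time and no test. Of the 643 genes, which were called on these same arrays, 641 had the same direction at both times, and 399 had the larger difference at 4 h, with a median absolute difference of 0.763 at 4 h and 0.656 at 8 h. FOSL1 was 2.03 higher in serum at 4 h and 0.58 at 8 h, DUSP4 1.80 and 0.63, and ANGPTL4 1.80 and 0.66. The starved level of 4 h is the mean of 2 arrays, which lay far apart for FOSL1 (6.64 and 8.04) and DUSP4 (7.61 and 8.96). Their serum arrays of 4 h and 8 h lay closer, at 9.37 and 8.95 for FOSL1 and 10.08 and 9.70 for DUSP4. The sizes at 4 h for these 2 genes therefore depend on 1 starved array. ANGPTL4 was at 5.31 and 5.79 in these starved arrays and at 7.35 and 6.49 in serum. AKAP12 was 2.17 and 1.75 higher and TFPI2 1.46 and 2.21. Over all genes the median absolute difference was 0.171 between the 2 serum arrays and 0.206 between the 2 starved arrays of 4 h, so over all genes the 2 serum arrays were closer than the 2 starved arrays of a single time.

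Beside the serum array of 4 h in batch 6, other single arrays ended the calls of some named genes, all of which kept their direction. Without the serum array of 8 h, 44 of 102 named genes did not pass, with adjusted p-values of 0.05002 for KRT18 to 0.68 for MMP3, among them CALD1, CIART, NR1D2, CDK6, IGFL1, VEGFC, IL23A, IFIT2, SREBF1, IDI1, INSIG1, SPRY4, DUSP5, DUSP1 and MYCT1. Without replicate 1 of the starved 4 h arrays of batch 6, 36 genes did not pass, among them ITGA5, VCL, SESN3, CITED2, CDKN1B, DUSP5, SPRY4, SKIL, IDI1, INSIG1 and WNT5A, and without the starved 8 h array of that batch 20, among them IL23A, NR1D2, DUSP1, SREBF1 and WNT5A. The starved arrays of batch 2 ended the calls of MMP10, ATXN7L3-AS1, BCL6, CDKN2B, MSMO1 and MMP3 (8 h) and of TPM4, ATF3, BCL6, MSMO1 and EPHA2 (4 h), replicate 2 of batch 3 those of TPM4, ATF3, CDKN2B, MMP3 and EPHA2, and replicate 2 of the starved 4 h arrays of batch 6 those of ATF3, MMP3 and THBS2. MMP3 was also lost without any 1 of the 0 h arrays and TPM4 without the third of them. The 13 named genes that passed whichever array was left out were AKAP12, CXCL8, PLAUR, TFPI2, OSBP2, TGFA, CFLAR and SEMA3A, higher in serum, and FBXO32, TSC22D3, STON1, DDIT4 and LFNG, lower in serum.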

How the data were processed

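RNA was hybridised to Affymetrix U133 Plus 2.0 arrays, 1 per sample. The deposited values are log2 levels: per the study's methods the authors summarised 54675 probe sets with fRMA, fitted condition and processing date with limma (version not given in the sources used here) and subtracted the date coefficients. A refit left date coefficients of at most 1.2e-08. Depth does not apply to arrays, and their number limits the precision. The median log2 level of the 12 arrays was 5.005 to 5.199, and 2 arrays of a group correlated at 0.9733 to 0.9936, with no pair identical.

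In the platform annotation 41097 probe sets had a single gene symbol, 1801 had more than 1 and 11777 had none, and 41043 of the gene IDs were found in RefSeq, where 0 symbols needed an update. The brightest probe set with a single symbol stood for each of 19775 genes. limma 3.58.1 (R 4.3.3) was fitted to 58 arrays with 18 conditions and 6 dates (35 residual degrees of freedom), since removed date effects still cost degrees of freedom. For the same residual spread, this design made the SE of serum against starved 1.47 times that of a plain comparison of 5 with 7 arrays. The median SE was 0.175, against 0.108 in a fit of the 12 arrays alone. Groups came from the labels. Batch 6 was also fitted alone (7 residual degrees of freedom). Line differences, serum against EGF and gefitinib in serum were contrasts of the same fit.

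The members, gene lists and comparisons were chosen with earlier results of these data known. Named genes are the 15 largest rises and 15 largest falls with an adjusted p under 0.05 and no overlap in batch 6, and list members in order of absolute difference, up to 8 per list. List members beyond 8, and the genes named for a difference from EGF or between lines, were chosen after their values were seen. Gene lists (29, and 5 of markers) were written from general knowledge, and only their measured members are counted.

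On simulated data with this design, 50 of 19775 genes changed at each size, the fit recovered 30%, 84%, 98% and 94% of changes of 0.5, 1, 1.5 and 2 with 8 false calls among the unchanged genes. Simulated noise was drawn independently for each gene and array, so no simulated array was off as a whole. In the real data, leaving out 1 array gave 37 to 871 genes, so these rates may not carry over. A fit of the 12 arrays without date made 839 false calls and was used only as an alternative. Figures were drawn with matplotlib 3.10.9. The alternatives were batch 6 alone, no date term, the 12 arrays alone, no 0 h arrays, conditions split by time, centred arrays, other choices of probe set, bright genes alone, the replicate number as a block and each array left out.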

Additional observations from a re-analysis of the deposited data

Results flagged for a closer look

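Among 258 groups of arrays examined, 2 for each of 129 genes, 1 array lay far from the rest of its group. Chance alone gives about 1 in 20 groups, so this is fewer than chance would give. Many of the genes were also chosen for groups that do not overlap, so that rate is only approximate. DUSP4 on replicate 1 of the starved 4 h arrays of batch 6 was at 7.61, against 8.53 for the nearest other starved array. Without that array DUSP4 still passed.

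The difference between serum and starved cells differed between lines for these named genes, as tested by the interaction in limma (HaCaT-EGFR minus the other line, log2). Against HaCaT-vector the interaction was -2.56 for THBS2, 1.50 for SPMIP4, 1.45 for SKIDA1, 0.92 for NR2F1-AS1 and -0.65 for MYO5B. Against HaCaT-p65 it was -2.53 for THBS2, -1.69 for FMO4, -1.60 for PLAU, -1.32 for PIK3CD, -1.11 for PLAG1, -1.09 for BCL6, -1.03 for KCNMB4, -0.81 for ITGA5 and 0.83 for NR2F1-AS1. THBS2 was the gene of these that fell in HaCaT-EGFR with positive differences in both other lines. PLAU had not passed in HaCaT-EGFR itself (0.81, adjusted p = 0.12) and was 2.42 higher in serum in HaCaT-p65.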

How the results depend on the processing

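Serum against starved gave 643 genes. Batch 6 alone gave 194, no date term 4852 and the 12 arrays without date 3606, a fit that made 839 false calls on simulated data. Without the 0 h arrays 619 passed, with conditions split by time 681, with other choices of probe set 521 and 562, with bright genes alone 705, and with centred arrays 587, of which 168 were higher and 419 lower, against 249 and 394. Leaving out 1 array of the 12 gave 37 to 871, 37 without the serum array of 4 h in batch 6 and 383 without replicate 1 of the starved 4 h arrays of batch 6. Without the serum array of 8 h in batch 6, 676 passed, but only 341 of these were among the 643. The interaction counts were 533 with HaCaT-vector and 566 with HaCaT-p65 without date (47 and 126 with it), and 6 to 61 and 67 to 163 without 1 array. The lowest were without the starved HaCaT-vector array of batch 6 (6), and without the starved 8 h array of HaCaT-p65 in batch 2 (67). Replicates 2 of both serum groups (28 and 31 against HaCaT-vector), and replicates 2 and 3 of HaCaT-p65 (76 and 71) and replicate 3 of HaCaT-EGFR (70) in serum also moved the counts by over 1.5 times.

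The replicate number as a replicate block gave 747 genes (280 higher, 467 lower), 601 of them among the 643. The numbers do not pair the samples: same-numbered deviations of the 2 groups correlated at -0.088, -0.136 and 0.137, and the labels name nothing the numbers share. Of 102 named genes that passed, all kept their direction in every alternative that gave a value, and 13 passed without each single array. The serum array of 4 h ended 86 calls, that of 8 h 44, and the starved arrays of batch 6 36, 3 and 20. The cause was not tested.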

Other observations

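Of 197 measured transcripts read from the opposite strand of a promoter (symbols ending in -DT), 14 fell (7.11%) and 3 rose, beside 1.99% and 1.26% of all genes, with a median difference of -0.118. Antisense transcripts (-AS) fell in 24 of 792 (3.03%) and rose in 2, and zinc finger genes named ZNF fell in 13 of 502 (2.59%) and rose in 2. Long intergenic transcripts named LINC fell in 7 of 841 (0.832%) and rose in 4. These groups were chosen after their values were seen, and no test was made. WFDC21P, a pseudogene by its symbol, was 1.13 higher in serum than in starved cells and 1.76 higher in serum with gefitinib than in serum alone (limma, adjusted p = 2.00e-05), at 10.47 and 10.23 on the gefitinib arrays and 7.45 to 7.76 on the EGF arrays of batch 6. It was the 1 of the 10 genes higher in serum than with EGF that rose further with gefitinib.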
